A study of Mus musculus with 12 samples.

Results

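The transcription factors of the integrated stress response and the genes that feed back on it were followed in C2C12 myotubes exposed to BAM15, a small molecule that carries protons across the inner mitochondrial membrane and so uncouples respiration from ATP synthesis. The 9 genes (Atf4, Atf5, Cebpb, Cebpg, Ddit3, Atf3, Nupr1, Trib3 and Ppp1r15a) were chosen by symbol among the 15113 genes of the deposited count table, and all 9 had enough reads to be tested with 12730 genes in all. C2C12 is an established mouse myoblast line, and the cells were taken to confluence in high-glucose medium with fetal serum and then fused into myotubes in horse serum, in both groups alike. One group of 6 libraries received 20 μM BAM15 dissolved in DMSO for 16 h, and the other 6 libraries received the DMSO vehicle. The comparison therefore rests on a single cell line, a single dose and a single time, and the labels do not say whether the 6 libraries of a condition came from separate cultures, so that p-values measure the spread between these libraries, which may be technical.

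Between 13983725 and 18751780 reads per BAM15 library and between 15299135 and 18866728 reads per vehicle library were counted on genes. Reads came from the 3′ end of poly(A) transcripts, so that a count does not grow with the length of a transcript. Levels of different genes are therefore set side by side without a correction for length. Other differences between genes in how their reads were captured or counted were not tested. All 18 listed myotube genes were detected, with a summed level of 31054 to 33982 CPM (reads scaled to a common library total) with vehicle and 28348 to 33507 CPM after BAM15. The sum hides opposite shifts, and the median log2 fold change of the 18 was −0.17. None passed the thresholds given below, but 6 passed that on the p-value. Acta1 (7568 CPM with vehicle, 10396 CPM after BAM15) and Myog were higher, and Mymk, Ckm, Mylpf and Mb were lower. Of 7 listed myoblast genes 6 were measured, at a sum of 128 to 146 CPM with vehicle and 68.2 to 129 CPM after BAM15. By the thresholds given below, Myf5 was higher, though its groups overlapped, and Msc and Id2 were lower. Pax7 was lower without overlap but short of 2-fold (log2 fold change −0.93), and Id1 and Id3 did not pass. The sums of the measured adipocyte and endothelial genes (1 gene of each list) were at most 0.326 CPM in any library. The measured osteoblast genes (2 of 5, mostly Runx2) summed to 12.7 to 16.1 CPM with vehicle and 19.0 to 31.5 CPM after BAM15, and Cd68, the only measured gene of 4 leukocyte genes, to 0.588 to 1.11 and 3.22 to 4.21 CPM. The part of these shifts in the results was not tested, and in such bulk RNA fewer cells of a type and less RNA per cell cannot be told apart. On the second principal component BAM15 libraries with the numbers 4 to 6 lay apart from those with the numbers 1 to 3, and results are therefore also given within these numbers.

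In the integrated stress response, kinases that sense amino acid shortage, unfolded protein, double-stranded RNA, heme loss or mitochondrial trouble phosphorylate the initiation factor eIF2α. General translation then slows, while mRNAs with upstream open reading frames, above all that of ATF4, are translated more. ATF4 is a basic leucine zipper (bZIP) protein that binds DNA as a dimer, often with a C/EBP protein, and raises transcription of genes for amino acid synthesis, amino acid transport and further stress factors. The same program induces its own brakes, among them a subunit of the phosphatase that removes the phosphate from eIF2α. In muscle, this response is known to follow mitochondrial stress.

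The DNA element bound by C/EBP-ATF dimers reads TGATGNAA, and it was searched on both strands in promoter windows from 250 bases before to 50 bases after the annotated start (RefSeq, GRCm38.p6). All 9 genes had a window, and Atf5 had 2. The element was present in the windows of 3 of the 9 genes (Atf3, Nupr1 and Trib3), against 3.97% of 32817 windows of all genes. With bases before the start only, it was present in 2 genes (Atf3 and Nupr1), against 3.45% of windows. Here and below the 9 genes are counted by gene and the shares by window, so the measures differ. The stricter letters TGATGCAA were found in the windows of Atf3 and Nupr1, against 0.896% of all windows. The cAMP response element, TGACGTCA, to which ATF and CREB factors bind, was found in the window of Ppp1r15a, against 1.79% of all windows, and the endoplasmic reticulum stress element (CCAAT and CCACG with 9 bases between them) in none of the 9 genes, against 0.119% of all windows. Within the 9 genes no motif overlapped another, apart from the stricter letters, which lie inside the looser element. The 250 bases before the start of the 3 genes with a match there are shown because they let the position of the element be read against the start, which follows the last base; capitals mark the match, and TTGCATCA is the stricter element read on the opposite strand.
Atf3, chr1:191183334-191183583, minus strand: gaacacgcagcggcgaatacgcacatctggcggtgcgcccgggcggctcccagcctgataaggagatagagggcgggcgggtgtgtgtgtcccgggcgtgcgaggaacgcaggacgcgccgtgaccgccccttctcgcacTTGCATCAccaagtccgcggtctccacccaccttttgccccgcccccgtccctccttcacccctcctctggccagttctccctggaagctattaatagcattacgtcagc
Nupr1, chr7:126625471-126625720, minus strand: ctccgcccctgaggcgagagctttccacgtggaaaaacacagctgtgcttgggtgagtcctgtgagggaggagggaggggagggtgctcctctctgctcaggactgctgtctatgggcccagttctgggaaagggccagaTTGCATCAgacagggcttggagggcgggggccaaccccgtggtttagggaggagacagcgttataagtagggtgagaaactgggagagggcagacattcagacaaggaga
Ppp1r15a, chr7:45526269-45526518, minus strand: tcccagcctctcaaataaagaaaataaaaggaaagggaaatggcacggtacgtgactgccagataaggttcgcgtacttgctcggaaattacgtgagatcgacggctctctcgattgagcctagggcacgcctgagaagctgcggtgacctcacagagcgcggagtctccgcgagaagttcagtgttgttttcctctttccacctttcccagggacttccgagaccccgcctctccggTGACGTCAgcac
The element began 110 bases before the start in both Atf3 and Nupr1, whose windows lie inside longer GENCODE M21 gene models, and the cAMP response element of Ppp1r15a began 12 bases before it. In Trib3 the match lay after the annotated RefSeq start, 15 to 22 bases into the transcript, though before the start of the GENCODE M21 gene at 152344032, and is shown with 10 bases on either side.
Trib3, chr2:152344029-152344056, minus strand: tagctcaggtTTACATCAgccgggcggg
A match describes the letters of a window and not a bound site, and the absence of a match in the other windows, such as those of Atf4 and Ddit3, says only that these letters do not occur there.

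All 9 genes rose after BAM15, and each passed 3 thresholds, namely an adjusted p-value below 0.01, a mean count over 50 and a difference exceeding 2-fold (quasi-likelihood test of edgeR, Benjamini-Hochberg adjustment). By the same thresholds 3.7% of all tested genes were higher. The lowest BAM15 library lay above the highest vehicle library in all 9 genes, which held for 17.1% of all tested genes. The 9 genes were chosen with earlier results of these data known, so these comparisons with all tested genes are not independent evidence. The log2 fold changes ran from 1.35 (Cebpg) to 5.65 (Trib3), with a median of 2.10, beside a median of 0.02 over all tested genes. Together the 9 genes took 0.0816% to 0.0935% of the reads with vehicle and 0.407% to 0.512% after BAM15.

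**Figure D1:**
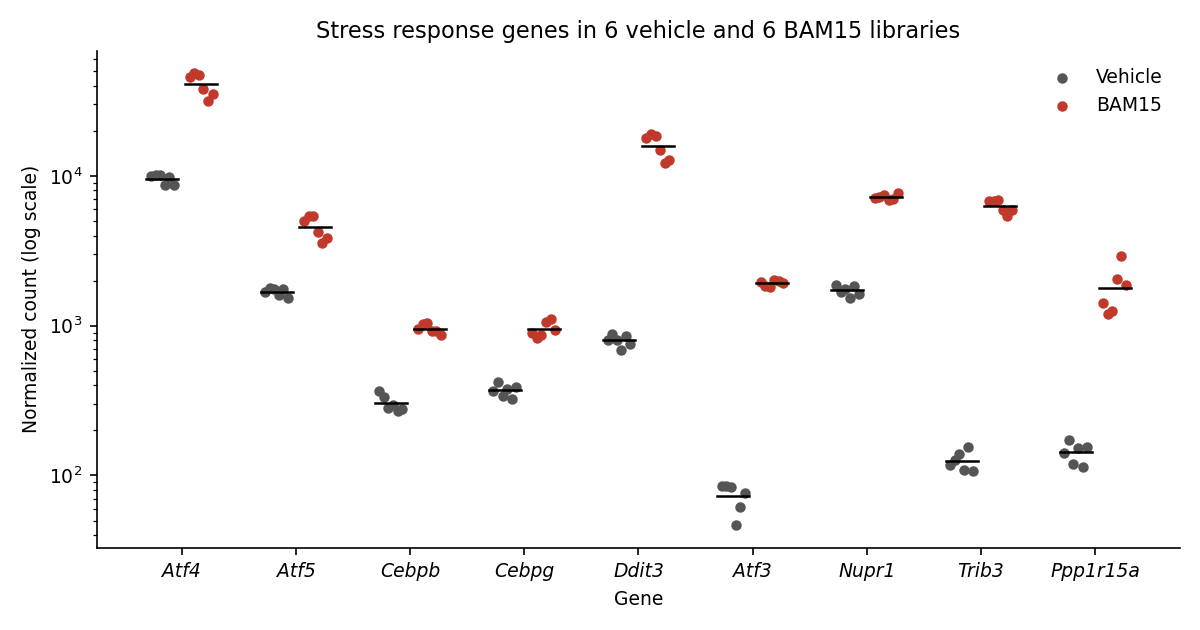
Normalized counts on a log scale (y axis) of the 9 genes (x axis) in 6 vehicle libraries (grey points) and 6 BAM15 libraries (red points), with the mean of each group as a black line. The groups do not overlap in any of the 9 genes, and Atf4 is highest in both, at 9573 and 41062 normalized counts on average.

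Atf4 (chromosome 15, 80255184 to 80257541, plus strand), the central transcription factor of the response, already had 8657 normalized counts in the lowest vehicle library, 9902 in the median and 10203 in the highest. After BAM15 it had 31843 in the lowest, 41919 in the median and 48368 in the highest library. With vehicle it was more abundant than 98.2% of tested genes, and after BAM15 than 99.7%. The mean rose from 9573 ± 706 to 41062 ± 6960 normalized counts (SD, n = 6 each), a log2 fold change of 2.10 ± 0.10 (SE; edgeR, adjusted p = 2.97e-10). Since ATF4 protein is controlled mainly at translation, these counts describe its mRNA only.

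Atf5 (chromosome 7, 44812256 to 44816658, minus strand) encodes a related bZIP factor that is likewise translated through upstream open reading frames and is known for inducing mitochondrial chaperones and proteases. It ranged from 1523 to 1799 normalized counts over the vehicle libraries (median 1718) and from 3562 to 5405 over the BAM15 libraries (median 4632). This was a log2 fold change of 1.44 ± 0.10 (SE; edgeR, adjusted p = 1.55e-08), beside 2.10 for Atf4.

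Cebpb (chromosome 2, 167688915 to 167690418, plus strand) and Cebpg (chromosome 7, 35046422 to 35056573, minus strand) encode C/EBPβ and C/EBPγ, bZIP proteins that can pair with ATF4. Cebpb lay between 270 and 365 normalized counts with vehicle (median 289) and between 867 and 1046 after BAM15 (median 939). Its log2 fold change was 1.65 (standard error 0.08, adjusted p = 2.97e-10, edgeR). Cebpg, whose product lacks a transactivation domain, lay between 323 and 423 with vehicle (median 374) and between 831 and 1105 after BAM15 (median 910). Its log2 fold change of 1.35 ± 0.09 (SE; edgeR, adjusted p = 5.59e-09) was the smallest of the 9 genes.

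Ddit3 (chromosome 10, 127290774 to 127296288, plus strand) encodes CHOP, a C/EBP-related factor known for its part in stress-induced cell death. It had 687 to 883 normalized counts with vehicle (median 808) and 12219 to 19011 after BAM15 (median 16402). The mean went from 799 ± 70.3 to 15889 ± 2993 (SD, n = 6 each), a 19.9-fold rise with a log2 fold change of 4.31 ± 0.13 (SE; edgeR, adjusted p = 9.44e-13). From a level above 70.9% of tested genes it passed to above 99.0%, and it became the second most abundant of the 9 genes. Of the final 400 bases of the Ddit3 transcript, 68 lie opposite exons of Mars on the other strand, and 5.41% of the 50-base windows there also occur in Mars. Mars itself changed by 0.88 on the log2 scale (edgeR, adjusted p = 2.69e-08). It had 2154 ± 163 normalized counts with vehicle, above Ddit3, and 3956 ± 296 after BAM15, far below Ddit3. Whether reads of Mars entered the Ddit3 counts was not tested.

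Atf3 (chromosome 1, 191170296 to 191218039, minus strand), an early stress-induced factor that often acts as a repressor, was the least abundant of the 9 genes with vehicle. It had 46.5 to 85.4 normalized counts there (median 80.5) and 1826 to 2013 after BAM15 (median 1943). The log2 fold change was 4.71 (standard error 0.12, adjusted p = 1.88e-13, edgeR). The BAM15 libraries were close to each other, with a coefficient of variation of 4.18%, whereas that of the vehicle libraries was 21.7% at their low counts.

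Nupr1 (chromosome 7, 126623249 to 126630861, minus strand) encodes a small stress-induced chromatin protein. It had 1538 to 1881 normalized counts with vehicle (median 1715) and 6890 to 7699 after BAM15 (median 7154), a log2 fold change of 2.07 ± 0.06 (SE; edgeR, adjusted p = 7.74e-13). Its spread after BAM15 was also small, with a coefficient of variation of 4.31%.

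Trib3 (chromosome 2, 152337422 to 152344032, minus strand) encodes a pseudokinase that binds ATF4 and CHOP and dampens their activity. It had 107 to 156 normalized counts with vehicle (median 122) and 5410 to 6851 after BAM15 (median 6379). The rise was 50.1-fold, a log2 fold change of 5.65 ± 0.11 (SE; edgeR, adjusted p = 2.69e-14), and it ranked 17th by fold change and 2nd by p-value of all 12730 tested genes. A gene at the level of 31.1% of tested genes with vehicle thus stood above 96.7% of them after BAM15.

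Ppp1r15a (chromosome 7, 45522916 to 45526268, minus strand) encodes GADD34, the stress-induced subunit that directs protein phosphatase 1 to eIF2α and so ends the response. It had 114 to 172 normalized counts with vehicle (median 147) and 1191 to 2921 after BAM15 (median 1647). The log2 fold change was 3.64 (standard error 0.23, adjusted p = 2.56e-08, edgeR). It was the most variable of the 9 genes after BAM15, with a coefficient of variation of 36.7%, beside 15.7% with vehicle. Of its final 400 bases, 6 lie opposite exons of Tulp2. The other 7 genes had no such overlap, and none of the 8 genes apart from Ddit3 shared a 50-base window with another gene.

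The order of the 9 genes by level changed with BAM15. With vehicle, Atf4 had 5.56 times the mean normalized count of Nupr1, which was followed by Atf5, Ddit3, Cebpg, Cebpb, Ppp1r15a, Trib3 and Atf3. The ranges of Nupr1 and Atf5, of Cebpg and Cebpb, and of Ppp1r15a and Trib3 overlapped, so these neighbors were not separated by their spread. After BAM15 the order was Atf4, Ddit3, Nupr1, Trib3, Atf5, Atf3, Ppp1r15a, Cebpb and Cebpg. Here Atf4 had 2.58 times the mean of Ddit3, and the ranges of Atf3 and Ppp1r15a and of Cebpb and Cebpg overlapped. Atf3, Trib3 and Ppp1r15a, which lay below Cebpb and Cebpg with vehicle, lay above both after BAM15.

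Set against Atf4 in the same library, the genes fell into those with a higher share after BAM15, 1 with a lower share and those whose groups overlapped. Ddit3 was at 8.35% of the Atf4 count with vehicle and at 38.6% after BAM15, Trib3 at 1.31% and 15.5%, Atf3 at 0.763% and 4.83%, and Ppp1r15a at 1.5% and 4.68%, with no overlap between the 2 groups for these 4 genes. Atf5 was at 17.7% and 11.1%, also without overlap. Nupr1 was at 18.0% in both groups, with a log2 ratio of −2.59 to −2.40 with vehicle and −2.75 to −2.19 after BAM15. For Cebpb (3.18% and 2.37%) and Cebpg (3.89% and 2.40%) the means were lower after BAM15 but the groups overlapped. Atf4 itself rose (log2 fold change 2.10), so a change in share mostly restates whether a gene rose more or less than Atf4. How many of all tested genes would not overlap in such a ratio was not computed. These ratios are descriptions and were not tested.

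**Figure D2:**
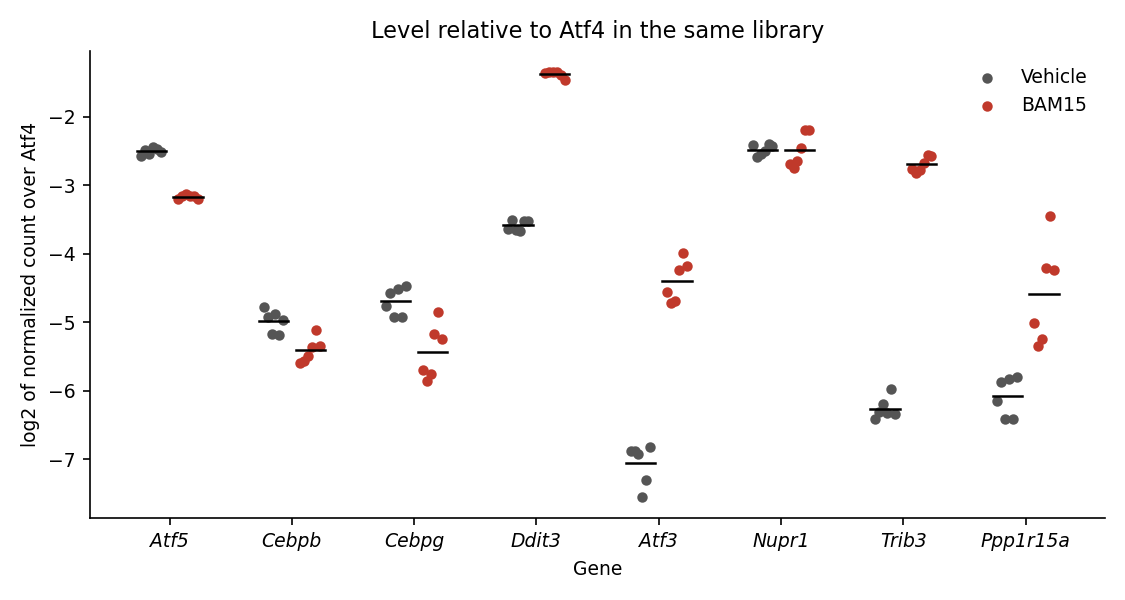
The log2 of each gene's normalized count over that of Atf4 in the same library (y axis) for 8 genes (x axis), with vehicle in grey, BAM15 in red and group means as black lines. Ddit3, Trib3, Atf3 and Ppp1r15a lie higher after BAM15, Atf5 lies lower, and the 6 BAM15 libraries of Ddit3 and Atf5 are tightly grouped.

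In 7 of the 9 genes the range of BAM15 libraries 4 to 6 did not overlap that of BAM15 libraries 1 to 3. This held for 49.9% of all tested genes, so that such a split was common and is not particular to these genes. In 5 of them (Atf4, Atf5, Ddit3, Trib3 and Cebpb) numbers 4 to 6 were lower, as in 27.7% of all genes, and in 2 (Cebpg and Ppp1r15a) they were higher, as in 22.2%. Among the vehicle libraries 2 of the 9 genes (Atf4 and Atf3) were split in this way, beside 14.2% of all genes. No label names a batch. The TMM scaling factors moved with the numbers, at 0.932 to 0.960 in BAM15 numbers 1 to 3, 0.980 to 1.04 in numbers 4 to 6 and 1.01 to 1.04 with vehicle, and the part of library composition in the split was not tested.

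Atf4 had 45947, 48368 and 47074 normalized counts in BAM15 libraries 1, 2 and 3, and 37891, 31843 and 35251 in libraries 4, 5 and 6. Ddit3 had 17878, 19011 and 18531 against 14927, 12219 and 12771. Atf5 had 5028, 5405 and 5397 against 4236, 3562 and 3854. These 3 genes were lower together in numbers 4 to 6, at 0.743, 0.720 and 0.736 times the mean of numbers 1 to 3 for Atf4, Ddit3 and Atf5. The log2 ratio of Ddit3 to Atf4 stayed between −1.46 and −1.34 and that of Atf5 to Atf4 between −3.19 and −3.12 over all 6 BAM15 libraries.

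Ppp1r15a went the other way. It had 1423, 1191 and 1245 normalized counts in BAM15 libraries 1, 2 and 3, and 2056, 2921 and 1870 in libraries 4, 5 and 6, or 1.77 times the mean of the former. Library 5, with the most Ppp1r15a, held the least Atf4, Atf5, Ddit3 and Trib3. Cebpg was at 1.19 times, whereas Nupr1 (0.989 times) and Atf3 (1.06 times) were nearly level. With 3 other scalings (size factors of DESeq2, upper quartile, library size only) the directions were the same for all genes but Nupr1, which was at 1.06 times with library size only. Atf3 was split with each of these scalings and Cebpb was no longer split with library size only.

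**Figure D3:**
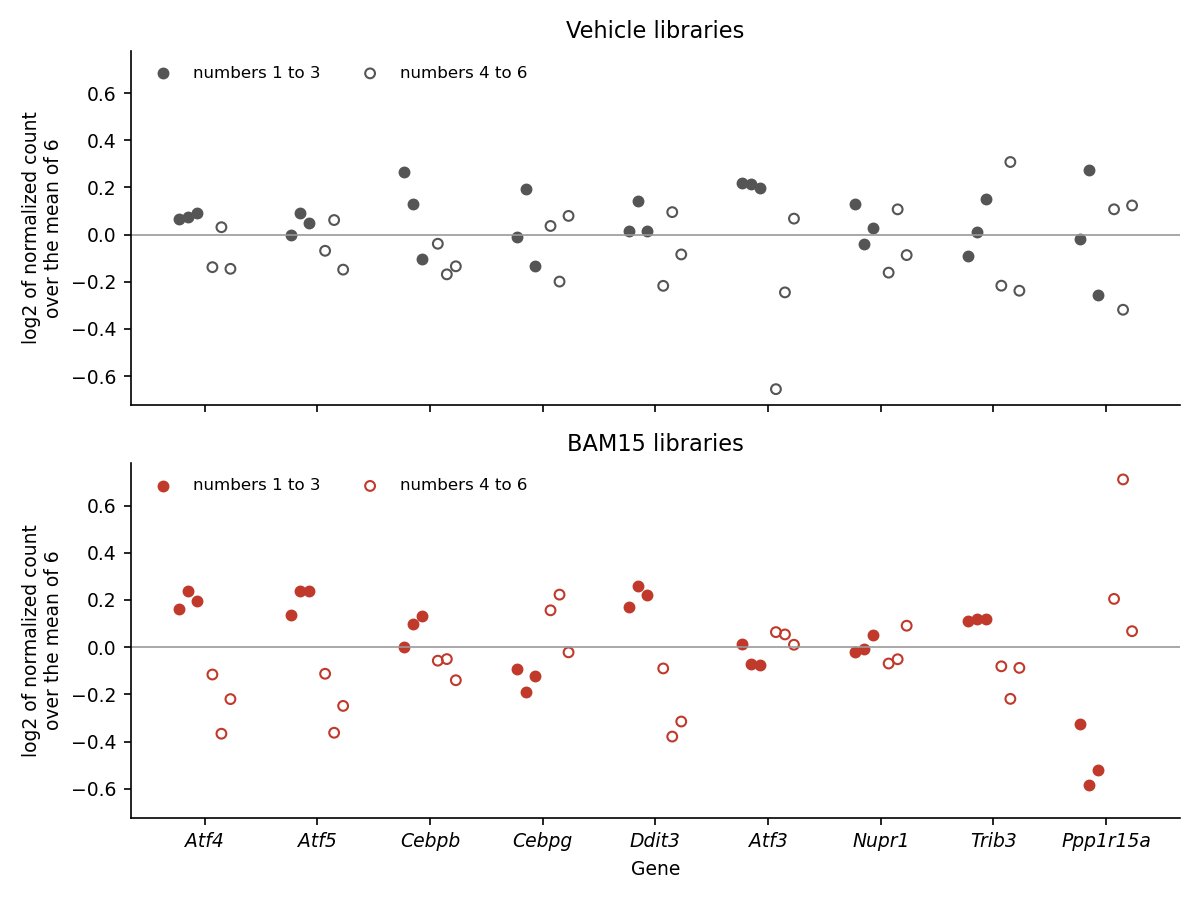
The log2 of each normalized count over the mean of the 6 libraries of its condition (y axis) for the 9 genes (x axis), with vehicle above and BAM15 below, and library numbers 1 to 3 as filled and 4 to 6 as open points. After BAM15 numbers 4 to 6 lie lower for Atf4, Atf5 and Ddit3 and higher for Ppp1r15a.

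Within either set of numbers all 9 genes still rose past the thresholds. Within numbers 1 to 3 the log2 fold change was 2.22 for Atf4 and 1.94 within numbers 4 to 6. It was 4.47 and 4.11 for Ddit3, 1.59 and 1.24 for Atf5, and 5.73 and 5.53 for Trib3. For Ppp1r15a the values were 3.16 and 4.00, for Cebpg 1.2 and 1.49, and for Atf3 4.45 and 4.98. Cebpb had 1.62 and 1.68, and Nupr1 2.03 and 2.09. The difference between the sets of numbers was not tested.

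Of 18 listed genes for eIF2α kinases, eIF2, eIF2B and their partners, 1 was past the 3 thresholds and higher and 0 were lower, with a median log2 fold change of 0.04. This count is near the share of all tested genes that were higher (3.7%) and is not particular to the list. The higher gene was Ppp1r15b, the constitutive counterpart of Ppp1r15a, which rose from 366 ± 46.0 to 781 ± 154 normalized counts (log2 fold change 1.10, standard error 0.12, adjusted p = 2.92e-06, edgeR). Without BAM15 replicate 5 its log2 fold change was 0.9993, and within numbers 1 to 3 it was 0.85, so that it fell short of 2-fold in both fits. Another 6 genes passed the p-value threshold with a change under 2-fold. These were Impact, an inhibitor of the kinase GCN2 (0.63), Eif2ak3, the kinase PERK (0.51), Eif2b3 (0.46), Gcn1l1, an activator of GCN2 (0.43), Dnajc3, an inhibitor of PERK (0.20), and Eif2ak2, the kinase PKR (−0.47). The remaining 11 did not pass. The log2 fold change was −0.19 for Eif2ak1, the heme-regulated kinase HRI, 0.02 for Eif2ak4, which encodes GCN2, 0.03 for Eif2s1, which encodes eIF2α, −0.06 for Oma1, a mitochondrial protease, and 0.28 for Dele1, which relays mitochondrial stress to HRI. It was 0.06 for Eif2b1, 0.23 for Eif2b2, −0.16 for Eif2b4, 0.03 for Eif2b5, −0.03 for Ppp1cc and −0.34 for Nck1. In 5 of the 18 genes the groups did not overlap with BAM15 higher, beside 17.1% of all tested genes, and in Eif2ak2 with BAM15 lower. Since kinases act through their activity, their mRNA does not measure signaling.

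Of 22 listed bZIP factors of the ATF, CREB and C/EBP families and their kin, 17 were tested, 1 was past the thresholds and higher and 0 were lower, with a median log2 fold change of 0.24. Here too the count is near the 3.7% of all tested genes. The higher gene was Nfil3, a repressor, with 425 ± 20.9 normalized counts with vehicle and 1331 ± 187 after BAM15 (log2 fold change 1.65, adjusted p = 6.30e-10, edgeR). Xbp1, a factor of the unfolded protein response, had 0.98 and Nfe2l1 had 0.82, both among the 7 genes whose p-value passed while the fold change did not. Xbp1 passed 2-fold within numbers 4 to 6 (1.34) and without BAM15 replicate 1, 2 or 3 (1.05, 1.10 and 1.07). The largest decreases were in Creb3l1 (−0.76) and Creb3l2 (−0.42), which encode membrane-bound factors of the secretory pathway. In 6 of the 17 tested factors the groups did not overlap with BAM15 higher, beside 17.1% of all tested genes. Creb3l1 and Creb3l2 did not overlap with BAM15 lower. Of 4 relatives of the feedback genes, 2 rose past the thresholds (Trib1 and Ppp1r15b), beside 3.7% of all tested genes, and 0 fell. Ppp1r15b is also among the 18 genes above, and it fell short of 2-fold within numbers 1 to 3 and without BAM15 replicate 5. By glmTreat, which tests against a 2-fold change, 0 of the 4 passed. Trib1 rose from 682 ± 37.9 to 1559 ± 232 normalized counts (log2 fold change 1.19, adjusted p = 3.16e-08, edgeR), Trib2 had −0.48 (adjusted p = 0.0145, edgeR) and Nupr1l, at 14.3 ± 3.12 and 14.8 ± 3.70 normalized counts, had 0.04 (adjusted p = 0.902, edgeR).

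Most of the genes that ATF4 and CHOP are known to induce rose. Of 47 listed targets, 45 were tested, 39 were past the 3 thresholds and higher, beside 3.7% of all tested genes, and 0 were lower, with a median log2 fold change of 1.74, beside 0.02 over all tested genes. The other 6 passed the p-value threshold with a rise under 2-fold, and in all 45 the groups did not overlap, with BAM15 higher, as in 17.1% of all tested genes. By glmTreat 30 passed. The list was drawn up with earlier results of these data known, so the count is not independent evidence. The largest rises were in Slc7a11, a cystine transporter (4.58, from 11.9 ± 2.73 to 285 ± 57.8 normalized counts), Gdf15, a secreted stress factor (4.52, from 143 ± 16.5 to 3288 ± 529) and Cth, an enzyme of cysteine synthesis (4.10, from 24.0 ± 7.89 to 411 ± 123). The smallest were in Ddit4, an inhibitor of mTORC1 (0.65), and Aars, the alanyl-tRNA synthetase (0.85). The C/EBP-ATF element was present in the promoter windows of 14 of the 37 targets that had a window, beside 3.97% of all windows. TGATGCAA was present in those of 11, beside 0.896% of all windows. Targets are counted by gene and these shares by window, and a gene can have several windows, so the measures differ.

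**Figure D4:**
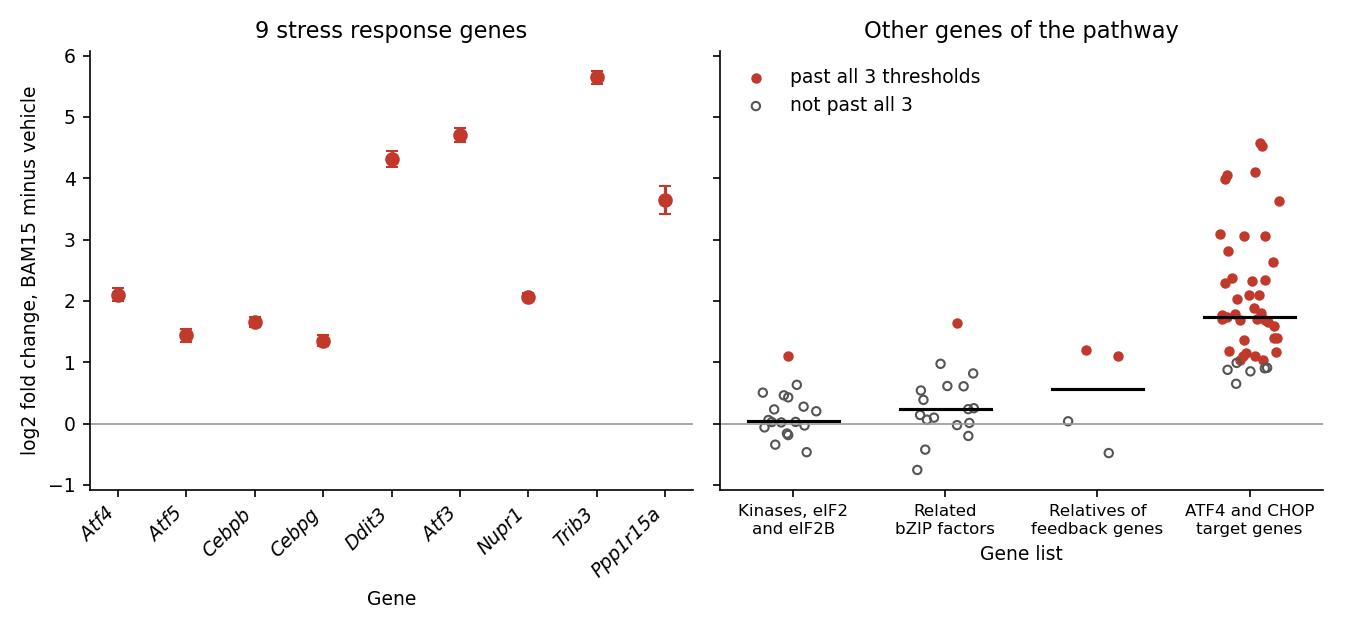
Log2 fold changes of BAM15 against vehicle (y axis, above 0 is higher after BAM15) for the 9 genes with their standard errors (left) and for the tested genes of 4 pathway lists (right), where filled points passed all 3 thresholds and black lines are medians. The medians are 0.04 for the kinase list, 0.24 for the bZIP relatives, 0.57 for the 4 feedback relatives and 1.74 for the targets. That of all tested genes is 0.02.

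Over the 12 libraries, the genes outside the list with the highest mean Pearson correlation of log2 CPM with the 9 genes were Leprotl1 (0.988), Gdf15 (0.988), Hist1h1c (0.988), Car6 (0.987) and Chchd10 (0.987), and their values are set by the gap between the 2 conditions, which all 12 libraries share. These correlations are descriptions over libraries that share a condition.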

How the data were processed

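RNA of 12 samples of C2C12 myotubes was sequenced by the study after QuantSeq 3′ library preparation. The authors aligned and counted reads with BlueBee software, and they deposited whole counts of reads per Ensembl gene, which were used as deposited. The aligner, the annotation and the strand of counting are not given in the sources used here; the submitters' processing notes name GRCm38 and mm10. The authors also deposited a normalized signal made with DESeq2 (1.22.2 in those notes), in which each library's counts are divided by a single size factor (0.836 to 1.07). It supplied gene symbols only, those of all 9 members among them. Of 2293 symbols missing there, 2260 were added from GENCODE M21. Another 11 columns of the count table were not used.

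In R 4.3.3 with edgeR 4.0.16, filterByExpr removed 2383 of 15113 genes, TMM factors ranged from 0.932 to 1.04, and a quasi-likelihood model (robust) containing condition alone was fitted to 12730 genes. The p-values were adjusted by the Benjamini-Hochberg method over all of these, and the standard error is the log2 fold change divided by the square root of F. Normalized counts are TMM-scaled to the mean library size. Every pair of replicates differed by more than sampling noise (chi-square per gene of 4.98 or more), so no library was counted as a copy. Positions are from GENCODE M21 (GRCm38), promoter sequences from RefSeq (GRCm38.p6). Named genes are the 9 members, all genes upstream of them and relatives of the feedback genes, the 3 largest and 2 smallest changes of the other pathway lists, and the 5 most alike by correlation; likeness within conditions is not reported here. The members and lists were chosen with earlier results of these data known. Alternatives were DESeq2 1.42.0, limma-voom (limma 3.58.1), other scalings, filters, blocks, subsets and thresholds. The test was checked on simulated counts. Plots were made with matplotlib 3.10.9 (Python 3.11.15).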

Additional observations from a re-analysis of the deposited data

How the results depend on the processing

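Under 23 other fits (DESeq2's Wald test, limma-voom, other scalings and filters, blocks, either set of library numbers, and each library left out in turn), each of the 9 genes kept its direction and its call in all 207 values. These fits reuse the same 12 libraries and are not independent evidence. Since the groups do not overlap in any of the 9 genes, fits on fewer libraries could not reverse a direction. With a replicate block 9 of the 9 genes passed (933 of all genes), and the block changed no call among them. Replicate numbers were not taken to pair the samples, since the methods name no pairing. Deviations of same-numbered libraries had r of 0.41, 0.06, 0.63, 0.41, −0.07 and 0.47 for numbers 1 to 6, and 2 of the 6 numbers matched their own best. Whether same-numbered libraries share an origin was not tested. With a log2 fold change above 2 required, 6 of the 9 passed, without Atf5, Cebpb and Cebpg. By glmTreat against a 2-fold change 9 passed. Of all genes 927 passed in either direction, 189 with a log2 fold change above 2, 1457 without the threshold on the mean count, 5822 at an adjusted p-value below 0.05 with no fold threshold, 467 by glmTreat, and 922 to 955 with 1 library left out. Of the listed pathway genes 42 passed, 18 with a log2 fold change above 2, 70 at an adjusted p-value below 0.05 with no fold threshold, 31 by glmTreat (0 of the genes upstream and 0 of the feedback relatives, so without Trib1 and Ppp1r15b), and 40 to 44 with 1 library left out. The split of BAM15 library numbers, tried under other scalings only after the data were seen, held for 8 genes with DESeq2 size factors or the upper quartile and for 7 with library size only. The C/EBP-ATF element remained in 2 promoters with stricter letters or with bases before the start only. The lowest count of the 9 genes in any library was in Atf3 with vehicle, where counting error is largest.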
